A study of Mus musculus with 68 samples.

Results

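The Gimap genes encode the GTPases of immunity-associated proteins, a family of guanine-nucleotide-binding proteins made mainly by lymphocytes. The 8 genes described here are Gimap1, Gimap3, Gimap4, Gimap5, Gimap6, Gimap7, Gimap8 and Gimap9, taken by name from the 23356 rows of the deposited expression table. They were selected on their measured FPKM in normal colon, which differed with Cftr genotype, so that difference is given below as a description and was not tested.

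GIMAP proteins sit on membranes of the endoplasmic reticulum, mitochondria, Golgi, lysosomes and lipid droplets. Several of them set how long resting T and B cells survive. Mice that lack Gimap5 lose peripheral T cells, and loss of Gimap1 depletes mature lymphocytes. In the intestine, lymphocytes lie between the epithelial cells, in the lamina propria and in lymphoid follicles.

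Their RNA was read in 23 specimens of intestine, in 12 groups, from C57BL/6 mice of 3 months of age. The study asked which genes and pathways change when Cftr is deficient, with and without the ApcMin allele. Cftr encodes an epithelial chloride and bicarbonate channel, and the Min allele of Apc gives mice intestinal tumours. Apc wildtype mice that were Cftr wildtype gave 2 normal colon and 2 normal duodenum specimens. Apc wildtype mice labelled Cftr knockout, with Cftr fl/fl and Villin-Cre, which acts in the intestinal epithelium, gave 2 normal colons, 2 normal duodena, 2 duodenal tumours and 1 colon tumour. From ApcMin mice came 4 tumours with wildtype Cftr (2 of colon, 2 of ileum) and 4 labelled knockout (2 of colon, 2 of ileum). A further 4 (2 of colon, 2 of duodenum) came from ApcMin mice labelled Cftr knockdown, also marked het. The sources used here give no Cftr allele for the ApcMin mice.

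The 23 specimens carried 10 animal numbers. Each ApcMin group came from 1 animal, so its Cftr genotype and its animal cannot be told apart. Normal colon and duodenum came from the same 4 animals, all Apc wildtype. Tumour state and Apc genotype therefore cannot be told apart where ApcMin tumours are compared with normal tissue. Specimen names carry W for normal colon, E for normal duodenum and T for tumours. They do not say whether tumours were prepared like normal tissue. The labels call colon a whole tissue and duodenum an epithelium; the series' design text instead speaks of epithelial cells for colon and of whole tissue, freed of villi, for duodenum. Both held lymphocyte RNA: Cd3e, a subunit of the T cell receptor complex, was at 0.798 to 2.18 FPKM in normal colon and at 3.95 to 5.33 FPKM in normal duodenum. Xist, expressed from an inactivated X chromosome, was at 24.0 to 55.6 FPKM in the 12 ApcMin tumours and at 0.024 to 0.461 FPKM in the 8 normal specimens, so ApcMin tumour and female sex cannot be told apart when the 2 are compared. Among the Apc wildtype tumours, duodenal tumour 1 had Xist at 34.2 FPKM and duodenal tumour 2 at 0.0212 FPKM.

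Levels are in FPKM, fragments scaled to transcript length and library size. The table holds no counts. The relative depth of its 68 columns, read from the steps between low values, spanned 1.84-fold. The 2 wildtype duodenum specimens differed by no more than their lanes did, at 0.955 and 0.995 times the expected spread in the 2 runs, against 2.49 to 8.4 times in the other groups, and were counted as 1 sample. The run 1 library of wildtype colon 2 stood apart: 20 small-intestinal enterocyte genes summed to 3020 FPKM there and to 244 FPKM in its run 2 library. Cftr itself did not follow the labels. Colon labelled knockout had 30.5 and 25.9 FPKM, against 22.2 and 21.7 FPKM in wildtype colon, and knockout duodenum had 33.0 and 47.2 FPKM, against 31.3 and 32.0 FPKM in wildtype duodenum. One value per gene does not show whether part of the transcript was missing, so knockout and wildtype below are the labels' words.

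The 8 genes lie side by side on mouse chromosome 6 (GRCm38), within 124 kb between positions 48647234 and 48770851. In order they are Gimap8, Gimap9, Gimap4, Gimap6, Gimap7, Gimap1, Gimap5 and Gimap3, with Gimap6 and Gimap3 on the minus strand and the others on the plus strand. Cftr is on the same chromosome, 30.3 Mb away. The readthrough gene Gm28053 spans Gimap7, Gimap1 and Gimap5, and the antisense gene Gimap1os overlaps Gimap1. Gm28053 lies on the same strand as Gimap7, Gimap1 and Gimap5, so strand would not tell its reads from theirs. Reads of Gimap1os could be told from those of Gimap1 only with strand information. Both limit the values of the genes they overlap.

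Start-site windows are shown for 5 members, picked as examples of the differing outlines below: Gimap4 and Gimap7, Gimap1 and Gimap5, and Gimap9. The pairs are alike within themselves. Gimap3, Gimap6 and Gimap8 are not shown. Each runs from 250 bases before to 50 bases after a RefSeq start (GRCm38.p6), 5′ to 3′ in the direction of the gene. Capitals mark matches, on either strand, to the letters AGGAAG (ETS factors), TGTGGT (RUNX factors) and CTTTGA (TCF/LEF factors). The order is Gimap4 at chr6:48684328-48684627, Gimap7 at chr6:48718371-48718670, Gimap1 at chr6:48738797-48739096, Gimap5 at chr6:48745947-48746246 and Gimap9 at chr6:48675885-48676184, all on the plus strand.
Gimap4: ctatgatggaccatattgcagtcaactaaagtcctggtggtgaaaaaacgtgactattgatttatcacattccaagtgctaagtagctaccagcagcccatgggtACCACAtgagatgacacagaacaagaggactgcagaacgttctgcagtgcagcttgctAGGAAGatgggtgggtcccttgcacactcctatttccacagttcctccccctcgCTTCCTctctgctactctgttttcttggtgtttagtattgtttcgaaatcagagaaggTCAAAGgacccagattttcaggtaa
Gimap7: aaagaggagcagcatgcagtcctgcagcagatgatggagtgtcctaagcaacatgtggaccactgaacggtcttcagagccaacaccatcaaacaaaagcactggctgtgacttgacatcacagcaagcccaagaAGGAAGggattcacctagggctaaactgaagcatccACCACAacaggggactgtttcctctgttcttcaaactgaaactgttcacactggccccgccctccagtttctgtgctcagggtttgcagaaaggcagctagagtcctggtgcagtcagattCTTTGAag
Gimap1: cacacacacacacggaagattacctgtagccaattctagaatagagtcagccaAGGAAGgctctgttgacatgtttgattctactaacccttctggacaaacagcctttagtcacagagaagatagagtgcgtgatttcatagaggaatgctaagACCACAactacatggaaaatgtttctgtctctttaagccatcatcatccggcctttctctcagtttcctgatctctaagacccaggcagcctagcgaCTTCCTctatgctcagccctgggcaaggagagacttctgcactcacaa
Gimap5: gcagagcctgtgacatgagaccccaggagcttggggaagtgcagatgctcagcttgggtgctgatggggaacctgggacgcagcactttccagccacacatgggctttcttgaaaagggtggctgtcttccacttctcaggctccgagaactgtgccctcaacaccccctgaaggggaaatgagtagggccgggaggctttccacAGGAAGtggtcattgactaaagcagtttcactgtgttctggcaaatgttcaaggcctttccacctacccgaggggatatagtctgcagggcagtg
Gimap9: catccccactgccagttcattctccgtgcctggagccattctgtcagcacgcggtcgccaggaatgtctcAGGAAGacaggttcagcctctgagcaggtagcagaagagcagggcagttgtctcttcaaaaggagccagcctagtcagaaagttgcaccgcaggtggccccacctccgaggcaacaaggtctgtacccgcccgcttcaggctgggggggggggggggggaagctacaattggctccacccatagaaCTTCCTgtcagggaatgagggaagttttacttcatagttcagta

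All 8 members had a window, 9 in total because Gimap8 has a second start. The ETS letters were found for 7 of 8 members, all but Gimap6, against 35.4% of the 32851 mouse windows of that length. Gimap6, whose window is not printed, had none of the letters searched. The RUNX letters were found for 3 of 8 (Gimap4, Gimap7 and Gimap1), against 16.8% of all windows. The TCF/LEF letters were found for 2 of 8 (Gimap4 and Gimap7), against 16.0%. The letters AGATAA of GATA factors were found for 0 of 8, against 11.2%. These matches are letters in a window, not measured binding.

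Gimap4, which speeds the death of T cells once it has been triggered, was at 13.9 and 14.9 FPKM in wildtype colon and at 5.61 and 7.98 FPKM in knockout colon. The 4 colon tumours of ApcMin mice with wildtype or knockout Cftr had 4.13 to 5.07 FPKM, and the 2 heterozygous ones had 3.70 and 3.07 FPKM. The single Apc wildtype knockout colon tumour had 14.2 FPKM, as much as wildtype colon. In duodenum Gimap4 was at 16.4 and 15.1 FPKM in wildtype and at 22.2 and 12.3 FPKM in knockout specimens. Apc wildtype knockout duodenal tumours had 7.93 and 9.36 FPKM, and heterozygous ApcMin duodenal tumours had 9.16 and 14.2 FPKM. Ileum tumours had 5.61 and 7.17 FPKM with wildtype Cftr and 5.18 and 4.28 FPKM with knockout. Group means were thus highest in normal duodenum and lowest in ApcMin colon tumours, though single specimens overlapped: knockout duodenum 2 lay below wildtype colon, and an ileum tumour lay among the colon tumours. The 2 normal colon genotypes did not overlap.

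Gimap3, a mitochondrial and endoplasmic reticulum member that influences which mitochondrial genomes leukocytes keep, had the same outline. It was at 6.91 and 7.24 FPKM in wildtype colon, at 2.27 and 3.32 FPKM in knockout colon, and at 0.990 to 1.58 FPKM in the wildtype and knockout ApcMin colon tumours. Heterozygous colon tumours had 2.24 and 1.41 FPKM, and the Apc wildtype knockout colon tumour had 5.99 FPKM. Duodenum had 9.70 and 9.96 FPKM in wildtype and 14.7 and 7.14 FPKM in knockout specimens. Its range over the 23 specimens was 14.8-fold, second only to Gimap7 among the members.

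Gimap7, whose GTPase acts as a dimer, ranged 16.2-fold, from 0.370 FPKM in an ApcMin Cftr wildtype colon tumour to 5.98 FPKM in knockout duodenum 1. It was at 3.28 and 2.86 FPKM in wildtype colon and at 1.29 and 2.30 FPKM in knockout colon. Its lanes also differed most, with a median coefficient of variation of 13.6% between the lanes of a library, against 4.58% to 8.68% for the other members. Low Gimap7 values are therefore the least certain of the family.

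Gimap6, which binds the autophagy protein GABARAPL2, was at 14.4 and 13.8 FPKM in wildtype colon, at 6.53 and 8.29 FPKM in knockout colon and at 4.71 to 6.14 FPKM in the 6 ApcMin colon tumours. Gimap8, the member with several GTPase domains, was at 3.70 and 3.51 FPKM in wildtype colon, at 1.74 and 2.06 FPKM in knockout colon and at 1.06 to 1.37 FPKM in those tumours. In colon the ApcMin tumours lay below every normal specimen for both genes. In duodenum the tumours overlapped only knockout duodenum 2, which had 8.32 FPKM of Gimap6 and 2.25 FPKM of Gimap8.

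Gimap1 and Gimap5 are the members needed for survival of mature lymphocytes. Gimap1 was at 13.7 and 13.6 FPKM in wildtype duodenum, at 16.0 and 12.7 FPKM in knockout duodenum and at 12.7 and 14.1 FPKM in heterozygous ApcMin duodenal tumours. It was at 7.57 to 8.84 FPKM in the 4 ileum tumours. Wildtype colon had 6.96 and 5.98 FPKM, knockout colon 3.23 and 3.90 FPKM, and the 6 ApcMin colon tumours 1.75 to 3.57 FPKM. Every small-intestinal specimen, tumours included, exceeded every colon specimen for Gimap1, with runs averaged where there were 2. Gimap1 was lower in run 2 than in run 1 in all 11 specimens sequenced in both, at 0.6803 to 0.9455 times. Ileum tumours were in run 2 alone. Wildtype colon 1 had 7.64 FPKM in run 1, within the range of the ileum tumours.

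Gimap5 had a lower level, and its organs overlapped. It was at 3.50 and 3.63 FPKM in wildtype duodenum, at 4.15 and 2.83 FPKM in knockout duodenum and at 1.98 to 2.64 FPKM in ileum tumours. Wildtype colon had 2.21 and 2.18 FPKM, knockout colon 1.12 and 1.34 FPKM, and ApcMin colon tumours 0.783 to 1.18 FPKM.

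Gimap9 was nearly level. It ranged only 2.16-fold, from 4.00 FPKM in an ApcMin knockout colon tumour to 8.66 FPKM in a heterozygous duodenal tumour, against 4.16-fold to 16.2-fold for the other members. Wildtype colon had 6.46 and 5.50 FPKM and knockout colon had 4.65 and 5.24 FPKM. The other 7 members all had their highest value in knockout duodenum 1, where Gimap9 had 6.53 FPKM. In the order of the 12 group means, neighbouring groups did not overlap at 2 to 4 of the 11 steps, depending on the member. Most neighbours in each order therefore overlapped. This count took wildtype duodenum as 2 specimens, although they were alike within lane noise, and the Apc wildtype colon tumour is 1 specimen. Steps next to these groups therefore do not measure a spread between specimens on both sides.

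**Figure D1:**
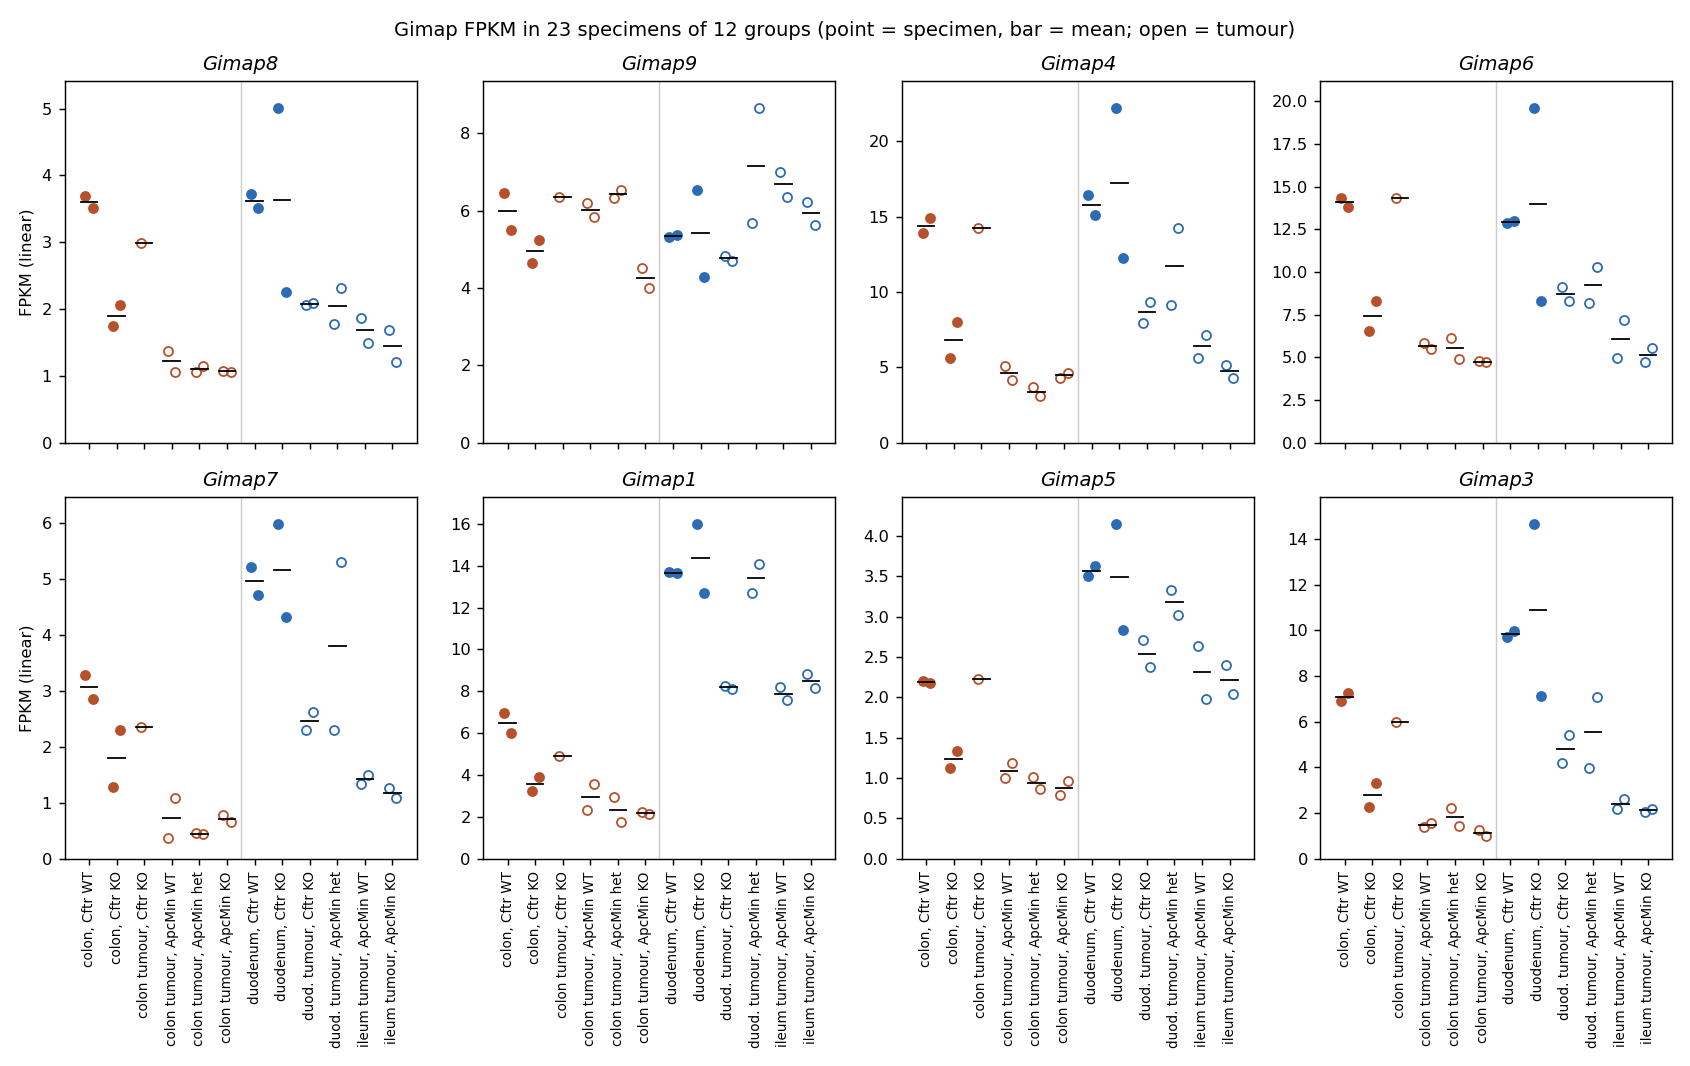
FPKM of each Gimap gene on a linear axis from 0, with 1 point per specimen, a bar at the group mean, open points for tumours, orange for colon and blue for small intestine. Normal duodenum is highest for most members, the 6 ApcMin colon tumours are lowest or near lowest for all but Gimap9, and Gimap9 spans only 2.16-fold.

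The members' levels varied together to different degrees. Over the 22 samples, the log2 levels of Gimap3, Gimap4, Gimap6, Gimap7 and Gimap8 correlated with one another at Pearson r of 0.83 to 0.958. Gimap1 and Gimap5, adjacent on the chromosome and both within Gm28053, correlated at 0.97, and each with those 5 genes at 0.558 (Gimap1 with Gimap6) to 0.842 (Gimap5 with Gimap7). Gimap7 thus correlated with Gimap1, at 0.83, as closely as with Gimap6, also at 0.83. Gimap9 correlated with the other members at 0.132 to 0.256. The samples share animals, organs and libraries, so these values are descriptions. Leaving out normal colon, the tissue on which the members were chosen, left 18 samples with 0.97 for Gimap1 and Gimap5 and 0.953 for Gimap3 and Gimap4.

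The balance within the family differed by organ. Gimap1 FPKM was 0.343 to 0.864 times Gimap4 FPKM in the 11 colon specimens (median 0.5) and 0.72 to 1.9 times in the 12 small-intestinal specimens (median 1.04). The ratio was 1.06 to 1.9 in ileum tumours and 0.72 to 1.04 in normal duodenum. Gimap1 thus stood high relative to Gimap4 in ileum tumours, where Gimap4 was low. These ratios mix specimens of 1 run and of both, and Gimap1 was lower in run 2 than in run 1.

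**Figure D2:**
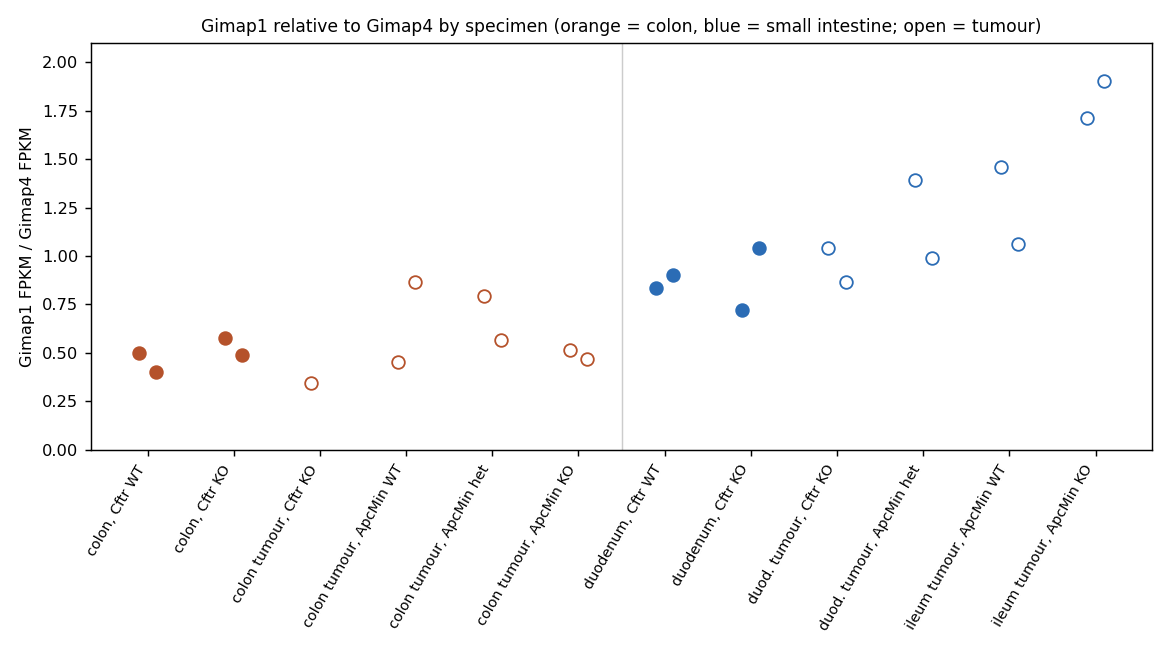
Ratio of Gimap1 FPKM to Gimap4 FPKM in each of the 23 specimens on a linear axis from 0, with orange for colon, blue for small intestine and open points for tumours. Colon specimens lie between 0.343 and 0.864 and small-intestinal specimens between 0.72 and 1.9, and the organs overlap from 0.72 to 0.864.

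In normal colon, the contrast on which the genes were chosen, all 8 members were lower in knockout than in wildtype specimens, with no overlap. On the log2(FPKM + 1) scale, which understates the change of low genes, the differences ran from -0.23 for Gimap9 to -1.10 for Gimap3, with Gimap1 at -0.71 and Gimap6 at -0.85. Over all 14098 genes tested, 0% passed an adjusted p of 0.05 in this contrast with limma, and 948 had an unadjusted p under 0.05. The members' inclusion rests on this contrast, and the share of all genes without overlap was not counted. Nothing is therefore read from their direction or their lack of overlap here. In bulk tissue, fewer cells of a type and less RNA per cell cannot be told apart.

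Levels of T and B cell markers also stood apart between the same specimens. The 20 T cell markers summed to 22.6 to 29.1 FPKM in knockout colon and to 42.8 to 43.5 FPKM in wildtype colon, none of them at 0, and all 18 tested had a negative difference (median -0.43). The 16 B cell markers summed to 32.3 to 54.9 FPKM and to 126 to 175 FPKM (median difference -1.46). The 12 pan-leukocyte genes summed to 123 to 179 FPKM and to 246 to 300 FPKM, and the 14 endothelial markers to 100 to 110 FPKM and to 120 to 132 FPKM. All 7 lymphoid follicle stroma and venule genes had a negative difference (median -1.19). Plasma cell markers did not share the direction, with a positive difference for 6 of 7 (median 0.06), and 14 of 14 epithelial markers had a positive one (median 0.31). Macrophage and monocyte markers were split, with 6 of 13 positive (median -0.02). They summed to 396 to 537 FPKM in knockout and 514 to 515 FPKM in wildtype colon. Small-intestinal enterocyte genes had 1 of 20 positive (median -1.54), but the wildtype group holds the run 1 library that stood apart in them. The part of these lists in the Gimap difference was not tested.

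**Figure D3:**
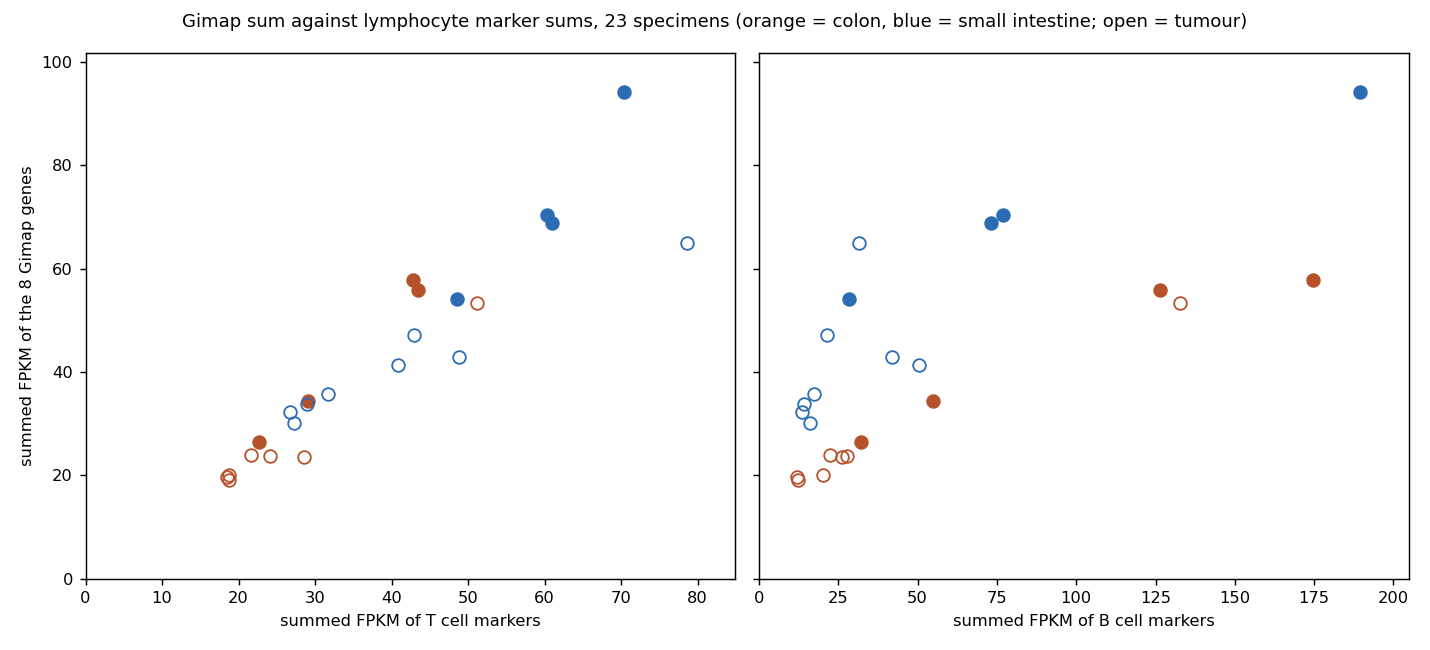
Summed FPKM of the 8 Gimap genes against the summed FPKM of 20 T cell markers (left) and 16 B cell markers (right), 1 point per specimen, linear axes from 0, orange for colon, blue for small intestine and open points for tumours. The 6 ApcMin colon tumours have the lowest Gimap sums, 19.1 to 24.0 FPKM, and knockout duodenum 1 the highest, 94.2 FPKM.

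In normal duodenum, with the same genotypes and animals, 0 of 8 members passed the test by Cftr genotype. Differences between knockout and wildtype lay between -0.06 for Gimap8 and 0.07 for Gimap4, with SEs of 0.178 to 0.347, and limma's test called 0% of all genes (368 of 14098 had an unadjusted p under 0.05). The wildtype arm was the 1 merged sample, so the spread in this test came from the knockout pair and the other groups, and wildtype was assumed to vary like them. The 2 knockout specimens lay on either side of the wildtype mean for every member: Gimap4 was at 22.2 and 12.3 FPKM around 15.8 FPKM. Knockout duodenum 1 also had a B cell marker sum of 190 FPKM, against 28.2 FPKM in knockout duodenum 2 and 73.3 to 77.0 FPKM in wildtype duodenum. The part of that difference in the spread of the Gimap values was not tested. Differences from colon to duodenum in the Cftr effect on these genes were not tested, because the colon effect chose them.

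In ApcMin colon tumours, 0 of 8 members passed between knockout and wildtype Cftr, where 0.0638% of all genes passed. The largest difference was that of Gimap9, at 4.53 and 4.00 FPKM in knockout and 6.19 and 5.84 FPKM in wildtype tumours, a log2 difference of -0.42 (SE 0.175, adjusted p = 0.37 by limma). The median difference over the 8 members was -0.18, against 0.002 over all genes. In ApcMin ileum tumours 0 of 8 passed, where 0.121% of all genes passed, and the median was -0.14. Gimap4 had the largest difference there, -0.36 (SE 0.252, adjusted p = 0.999 by limma). The difference between the 2 tumour sites in the Cftr effect was itself tested, and 0 of 8 members passed (0% of all genes, with 676 at an unadjusted p under 0.05).

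Colon tumours of ApcMin mice had less of 7 of the 8 members than normal colon, when wildtype and knockout Cftr were averaged in both tissues and run 2 libraries alone were used. Over all genes 23.1% passed as lower and 22.3% as higher. All these tumours were ApcMin and all normal colons Apc wildtype, so tumour state and Apc genotype cannot be told apart. Whether both were prepared alike is not given. Gimap3 fell by 1.23 on the log2 scale, with tumours at 0.990 to 1.58 FPKM and normal colon at 2.42 to 6.81 FPKM (SE 0.172, adjusted p = 0.000473 by limma). Gimap4 fell by 0.97, with tumours at 4.13 to 5.07 FPKM and normal colon at 5.81 to 14.9 FPKM (SE 0.155, adjusted p = 0.000853 by limma). Gimap7 fell by 0.93 and Gimap6 by 0.86. These groups of 4 specimens each did not overlap for Gimap3, Gimap4, Gimap6, Gimap7 and Gimap8. The share of all genes without overlap was not counted in any comparison, so nothing is read from the number of members without it. The tumours of each Cftr genotype came from 1 animal.

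The survival-associated Gimap1 and Gimap5 passed with overlapping groups. Gimap1 fell by 0.58 (SE 0.112, adjusted p = 0.0021 by limma) and Gimap5 by 0.43 (SE 0.129, adjusted p = 0.019 by limma). Without wildtype colon 1, knockout colon 2, wildtype tumour 1 or knockout tumour 1, each left out alone, Gimap5 had adjusted p of 0.0554 to 0.0666 by limma. Gimap9 had a difference of -0.14 (SE 0.126, adjusted p = 0.387 by limma), with tumours at 4.00 to 6.19 FPKM and normal colon at 4.95 to 6.78 FPKM. The median over the 8 members was -0.83, against -0.003 over all genes.

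Among other leukocyte lists the calls were mixed in the same comparison. Of 18 T cell markers tested, 10 fell and 1 rose (median -0.46), among them the coreceptor genes Cd4, which fell by 1.18 (adjusted p = 0.00016 by limma), and Cd8a, which fell by 0.61, and the costimulatory receptor gene Cd28, which fell by 0.65. Of 16 B cell markers, 16 fell (median -1.56), including Spib, Cd79b and Ms4a1. Of 12 pan-leukocyte genes, 11 fell (median -0.81), including Ptprc, which encodes CD45 and fell by 1.03. Of 11 intraepithelial lymphocyte and cytotoxic genes, 7 fell and 1 rose, the chemokine gene Ccl5 falling by 1.83. Of 10 naive and memory lymphocyte genes 3 rose and 4 fell (median -0.27), and only 3 of the 10 had a positive difference. Their sum was nevertheless 75.5 to 108 FPKM in the 4 tumours and 52.9 to 74.9 FPKM in normal colon, averaged there over both runs. Such a sum follows its most abundant genes, so it does not give the direction of most genes of the list. Of 7 plasma cell markers, 2 rose and 4 fell. Of 14 endothelial markers, 4 rose and 3 fell (median -0.05). T cell markers summed to 18.6 to 28.5 FPKM in the 4 tumours, with 1 of 20 at 0 in each of 3 of them, and B cell markers to 11.9 to 26.2 FPKM. Their part in the Gimap difference was not tested.

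In the heterozygous ApcMin colon tumours, compared with normal colon in run 1 libraries, 7 of 8 members were again lower, where 26.5% of all genes passed as lower and 26.8% as higher. Gimap4 fell by 1.33, with tumours at 3.07 to 3.70 FPKM and normal colon at 5.40 to 14.9 FPKM (SE 0.270, adjusted p = 0.0038 by limma). Gimap7 fell by 1.25 (SE 0.274, adjusted p = 0.00539 by limma), and Gimap1 fell by 0.95 (SE 0.168, adjusted p = 0.00189 by limma). Gimap9 was on the other side: tumours had 6.33 to 6.54 FPKM and normal colon 4.36 to 6.14 FPKM, a difference of 0.27 that did not pass (adjusted p = 0.211 by limma). With the compared groups alone it passed as higher (adjusted p = 0.0208 by limma). Both comparisons used the same normal colon specimens, all Apc wildtype, so tumour state and Apc genotype cannot be told apart here either. Leaving out 1 specimen left 3 to 6 of 8 called. That count was 3 without heterozygous tumour 2, 4 without heterozygous tumour 1 or knockout colon 2, and 5 without the run 1 library of wildtype colon 2. Gimap6 also missed the threshold without the filter on low values (adjusted p = 0.0786 by limma).

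Of the T cell markers in the heterozygous comparison, 6 of 18 fell and 1 rose. Of the genes of naive and memory lymphocytes 3 of 10 rose and 2 fell, with Tcf7, a Wnt-pathway factor also found in epithelium, higher by 2.07 and Lef1 by 1.83 (adjusted p = 0.000217 and 0.000216 by limma). Pan-leukocyte genes fell for 2 of 12 (median -0.48), and 1 of 12 had a positive difference. B cell markers fell for 6 of 16, with 0 positive differences (median -1.25). Intraepithelial lymphocyte and cytotoxic genes fell for 6 of 11 and rose for 1 (median -0.69). T cell markers summed to 18.8 to 24.1 FPKM in these tumours, with 2 of the 20 markers at 0 in heterozygous tumour 2.

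Duodenal tumours of Apc wildtype knockout mice were compared with knockout duodenum. All 8 members had a negative difference, 1 of 8 passed, and 4.23% of all genes passed as lower and 3.94% as higher. That member was Gimap1, at 8.27 and 8.10 FPKM in tumours and 16.0 and 12.7 FPKM in duodenum, which fell by 0.73 (SE 0.180, adjusted p = 0.0269 by limma). Gimap3 and Gimap4 had larger differences that did not pass, -0.97 (adjusted p = 0.0544 by limma) and -0.87 (adjusted p = 0.0533 by limma). The call rested on these settings: without knockout duodenum 2, 5 of 8 passed, and without any of the other 3 specimens 0 of 8 did. Of 18 T cell markers, 0 passed (median -0.26), and the T cell sum was 40.8 to 48.8 FPKM in tumours and 48.5 to 70.4 FPKM in duodenum. Of 14 endothelial markers 1 rose, Eng, by 0.45.

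**Figure D4:**
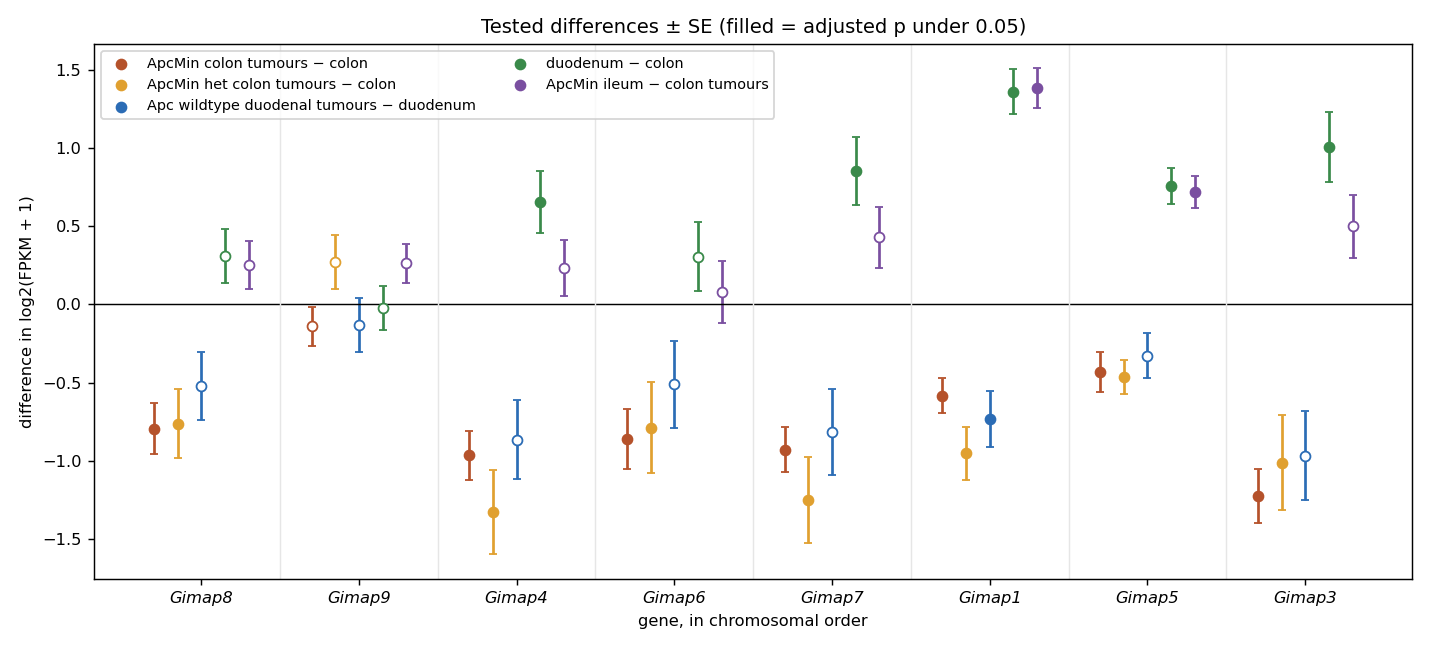
Difference in log2(FPKM + 1) with its SE for each Gimap gene, in chromosomal order, in 5 comparisons shown by colour; filled points have an adjusted p under 0.05 by limma. Tumour comparisons lie below 0 for all members but Gimap9, and the 2 organ comparisons share their largest value at Gimap1, at 1.36 and 1.38.

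Normal duodenum had more of 5 of the 8 members than normal colon, with Cftr genotypes averaged, where 28.5% of all genes passed as higher and 27.1% as lower. The labels and the design text give colon and duodenum different preparations, so organ and preparation cannot be told apart in this comparison. Gimap1 rose by 1.36 (SE 0.143, adjusted p = 6e-06 by limma), with duodenum at 12.7 to 16.0 FPKM and colon at 3.23 to 6.96 FPKM. Gimap5 rose by 0.76 (SE 0.115, adjusted p = 0.000124 by limma), Gimap3 by 1.01 (adjusted p = 0.00208 by limma), and Gimap7 by 0.85 (adjusted p = 0.00486 by limma). Gimap4 rose by 0.66 (adjusted p = 0.0137 by limma) and, like Gimap3, overlapped between organs. Both organs came from the same 4 animals, so normal tissue was also fitted with the animal as a block. That fit counted wildtype duodenum as 2 specimens, although these were alike within lane noise. In it 4 of 8 members passed, and Gimap4 had an adjusted p of 0.111 by limma. It had 0.0527 with the compared groups alone, 0.0599 in run 1 alone and 0.0529 without knockout colon 1. Gimap6 (0.31), Gimap8 (0.31) and Gimap9 (-0.02) did not pass. Without knockout duodenum 2, Gimap6 and Gimap8 passed too, with 0.59 and 0.53, and Gimap8 passed under quantile normalisation (adjusted p = 0.0311 by limma).

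Intraepithelial lymphocyte genes were mostly higher in duodenum, and T cell markers in part. Of 18 T cell markers, 8 rose and 1 fell, including Cd8a, which rose by 1.92 (adjusted p = 1.29e-06 by limma), and Cd3e, which rose by 1.26. The T cell markers summed to 48.5 to 70.4 FPKM in duodenum. Of 11 intraepithelial lymphocyte and cytotoxic genes, 10 rose, among them the granzyme genes Gzma, by 4.42, and Gzmb, by 3.41, and Ccr9, the gut-homing chemokine receptor gene, by 1.14. Of 10 naive and memory genes, 0 rose and 3 fell, including Klf2, a factor of resting lymphocytes, by 0.74. B cell markers rose for 0 of 16 and fell for 1. Organ and preparation cannot be told apart for these genes either. Which of these cells carried the Gimap RNA was not tested.

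Gimap1 and Gimap5 were the 2 members called in tumours of the ileum against tumours of the colon in ApcMin mice, where 13% of all genes passed as higher and 11.1% as lower. Gimap1 rose by 1.38, with ileum tumours at 7.57 to 8.84 FPKM and colon tumours at 2.15 to 3.57 FPKM (SE 0.128, adjusted p = 1.2e-05 by limma). Gimap5 rose by 0.72, with ileum tumours at 1.98 to 2.64 FPKM and colon tumours at 0.783 to 1.18 FPKM (SE 0.102, adjusted p = 0.000272 by limma). Gimap3 did not overlap and did not pass (0.50, adjusted p = 0.0898 by limma), but passed with a pseudocount of 0.1 or the compared groups alone (adjusted p = 0.0373 and 0.0154 by limma); Gimap4 (0.23) and Gimap6 (0.08) overlapped. Of the intraepithelial and cytotoxic genes 9 of 11 rose, Gzma by 2.73 and Ccl5 by 2.65, and of 18 T cell markers 4 rose and 1 fell. Both organs were sampled in the same 2 animals.

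Genes of the Bcl2 family and of autophagy did not share one direction. In ApcMin colon tumours against normal colon, 2 of 14 such genes rose and 6 fell: Bax, which promotes cell death, rose by 0.54, Bcl2l1, which opposes it, rose by 0.41, and the autophagy genes Map1lc3a and Gabarapl1 fell by 0.76 and 0.68. In duodenum against colon 2 rose and 6 fell, and Gabarapl1 fell by 1.57. Their median correlation with the mean Gimap level was -0.232 over the 22 samples.

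The genes whose levels were most like the mean of the members' centred log2 levels over the 22 samples were Rasgrp1 (r 0.947), Pglyrp2 (0.946), Ccdc69 (0.944), Dtx1 (0.94), Acap1 (0.938), Skap1 (0.938), Gpr18 (0.933), Cd6 (0.929), Agap2 (0.929) and Kynu (0.928). Their levels were low: the highest value of a gene ran from 1.2 FPKM (Agap2) to 6.27 FPKM (Acap1). The lowest ran from 0.0568 FPKM (Pglyrp2) to 0.546 FPKM (Ccdc69). Rasgrp1 encodes a Ras activator, Skap1 an adaptor and Cd6 a surface receptor of T cells, and Dtx1 a regulator of Notch signalling. Of the T cell markers, 5 of 18 had r over 0.9, against 25 of 14088 genes overall. Their median r was 0.857, against 0.801 for intraepithelial and cytotoxic genes, 0.751 for pan-leukocyte genes, 0.659 for B cell markers, 0.481 for plasma cell markers, 0.209 for naive and memory lymphocyte genes, 0.606 for small-intestinal enterocyte genes, 0.0195 for endothelial markers and -0.0252 for all genes. These values share organs, animals and libraries and carry no test. Without normal colon, over 18 samples, Dtx1 led with 0.961 and Rasgrp1 had 0.942. The members' own r with this mean, of which each is a part, was 0.856 to 0.975, except 0.257 for Gimap9.

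Genes next to the cluster did not follow the members as a block. Within 1 Mb on either side, 77 genes are annotated, 34 were in the table under a matching name and 26 were tested. In ApcMin colon tumours against normal colon, 9 of the 26 fell and 3 rose, with a median of -0.12. AI854703, next to Gimap8, fell by 2.08. On the Gimap3 side, Abp1 (now Aoc1, diamine oxidase) fell by 1.26 and Tmem176b rose by 0.29. In duodenum against colon 4 rose and 9 fell: AI854703 fell by 3.36, Zfp467 fell by 2.48 and Abp1 rose by 1.72. The r of a neighbour with the mean of the members' centred log2 levels was highest for Abp1, at 0.728, and lowest for Zfp282, at -0.67.

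**Figure D5:**
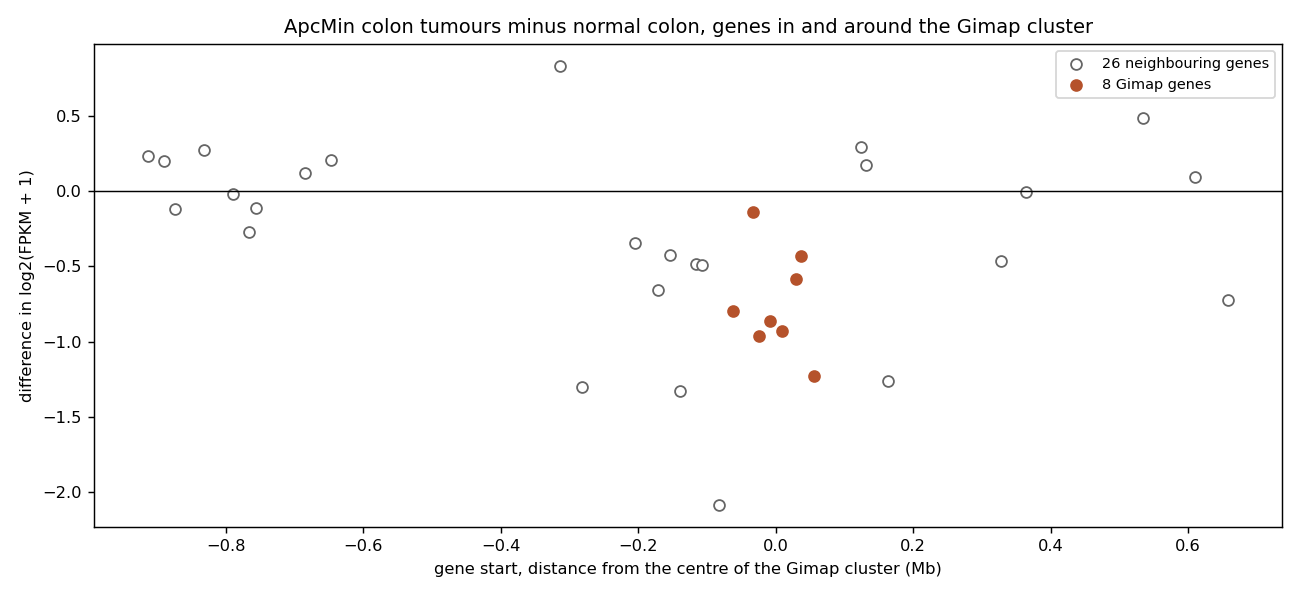
Difference in log2(FPKM + 1) between ApcMin colon tumours and normal colon for the 8 Gimap genes (orange) and 26 neighbouring genes (open), against the distance of each gene's start from the centre of the cluster in Mb. All 8 Gimap genes lie below 0, while 3 neighbours rose and 9 fell.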

How the data were processed

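RNA of 23 specimens was sequenced from polyadenylated libraries, per the labels' protocols. The authors deposited FPKM values per gene. TopHat2 2.0.13, Cuffnorm, FastQC and the mm10 build are named in the submitters' processing notes. The sources used here give no counts, strand setting or annotation.

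Columns were averaged per specimen, and the 2 wildtype duodenum specimens, alike within lane noise, were merged after that check (22 samples). The test took genes that reached 1 FPKM in 2 or more specimens (14098, all 8 members among them). It was limma (version 3.58.1, R 4.3.3; lmFit, then eBayes with trend) on log2(FPKM + 1), Benjamini-Hochberg adjusted over all of them at 0.05. All groups shared 1 fit, except that colon tumours were compared with colon within 1 run. P-values measure spread between specimens, many of which share an animal. The fit was tested on simulated data.

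Members and lists were chosen with earlier results of these data known. Named genes were all members, neighbours within 1 Mb, the 10 genes most like the members' mean, and up to 4 genes of a list with the smallest p. Animal numbers in the labels pair normal colon with duodenum; same-animal deviations correlated at 0.0332 in knockouts and 0.0103 in wildtypes. Alternatives were replicate blocks, quantile normalisation, another pseudocount (0.1), fits of the compared groups only, single runs, no filter on low values, wildtype duodenum as 2 specimens, and a library or each specimen left out.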

Additional observations from a re-analysis of the deposited data

Results flagged for a closer look

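The single colon tumour of an Apc wildtype Cftr knockout mouse entered no comparison, and every member was higher there than in both normal colon specimens labelled knockout. Gimap4 was at 14.2 FPKM against at most 7.98 FPKM, and Gimap6 at 14.3 FPKM against at most 8.29 FPKM. Gimap3 was at 5.99 FPKM against 3.32 FPKM, Gimap1 at 4.89 FPKM against 3.90 FPKM, and Gimap5 at 2.22 FPKM against 1.34 FPKM. Gimap8 was at 2.99 FPKM against 2.06 FPKM, Gimap9 at 6.35 FPKM against 5.24 FPKM, and Gimap7 at 2.35 FPKM against 2.30 FPKM. With 1 specimen the difference was not tested. The same specimen had a T cell marker sum of 51.2 FPKM against 22.6 to 29.1 FPKM, and a B cell marker sum of 133 FPKM against 32.3 to 54.9 FPKM.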

How the results depend on the processing

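With at most 2 specimens a group, wildtype duodenum counted as 1, and few animals, differences near 0 had no stable sign, and the low values of Gimap7 are the least certain. The cause of the shifts below was not tested. In the tumour and organ comparisons, members that passed kept their direction in every alternative run. Among those that did not pass, leaving out a specimen gave -1.08 to 0.061 for Gimap6 and -0.39 to 0.12 for Gimap9 in Apc wildtype duodenal tumours, -0.032 to 0.19 for Gimap6 in ileum against colon tumours, and -0.15 to 0.10 for Gimap9 in duodenum against colon (0.046 under quantile normalisation, 0.038 in run 1 alone).

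Of 8 members in Apc wildtype duodenal tumours, 0 were called with a pseudocount of 0.1, quantile normalisation, the compared groups alone or run 1 alone, 4 in run 2 alone, 3 with the replicate block and 0 to 5 without a specimen. In heterozygous colon tumours 3 to 6 were called without a specimen. The replicate number pairs no samples outside normal tissue of 1 animal, and fits with it as a block also counted wildtype duodenum as 2 specimens. In them the counts over all genes were 30 in duodenum by Cftr, 15 and 31 in ApcMin colon and ileum tumours by Cftr, against 0, 9 and 17. No other count of Gimap calls moved by more than 1.5 times under a block.

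Other counts over all genes moved too. Without the filter, Cftr genotype gave 16 in colon, 30 in duodenum, 26 in colon tumours and 50 in ileum tumours of ApcMin mice, and 1 for the difference of sites. With the compared groups alone they were 0, 120, 215 and 2257 in ApcMin colon and ileum tumours by Cftr, duodenal tumours, and ileum against colon tumours. Duodenum by Cftr gave 1 in run 2 alone and 31 with its wildtype as 2 specimens; ApcMin colon tumours gave 5 under quantile normalisation and ileum tumours 10 with a pseudocount of 0.1. Without a specimen, Cftr genotype gave 0 to 27 in colon, 0 to 21 in duodenum, 1 to 1921 in colon tumours (the highest without wildtype tumour 2) and 3 to 6 in ileum tumours of ApcMin mice. The ranges were 4699 to 6762 in heterozygous tumours, 418 to 1029 in duodenal tumours, and 0 to 289 for the difference of sites. Quantile normalisation changed the split of calls from 1826 higher and 1568 lower to 1629 and 2337 for ileum against colon tumours, and from 1 and 8 to 1 and 4 for ApcMin colon tumours by Cftr.

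Cftr differences of members in duodenum changed sign without a specimen: Gimap1 -0.10 to 0.21, Gimap3 -0.41 to 0.53, Gimap4 -0.34 to 0.47, Gimap5 -0.25 to 0.17, Gimap6 -0.58 to 0.57, Gimap7 -0.16 to 0.23, Gimap8 -0.51 to 0.38 and Gimap9 -0.26 to 0.25. Quantile normalisation gave 0.043 for Gimap5, 0.024 for Gimap8 and 0.042 for Gimap9, run 1 alone -0.014 for Gimap4, 0.067 for Gimap6 and -0.048 for Gimap7, and run 2 alone 0.056 for Gimap9. In ApcMin colon tumours the ranges were -0.15 to 0.088 for Gimap4 (0.002 under quantile normalisation), -0.29 to 0.32 for Gimap7 and -0.20 to 0.002 for Gimap8. In ileum tumours they were -0.18 to 0.11 for Gimap5, -0.42 to 0.03 for Gimap6 and -0.28 to 0.008 for Gimap8. The difference of sites ranged over -0.021 to 0.27 for Gimap5, -0.21 to 0.24 for Gimap6 (-0.022 under quantile normalisation), -0.48 to 0.13 for Gimap7 and -0.18 to 0.10 for Gimap8.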
